A study of Mus musculus with 15 samples.

Results

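The cathepsins measured here are 10 lysosomal proteases, given by their gene symbols: Ctsl, which encodes cathepsin L, and Ctsb, Ctsd, Ctsa, Ctsz, Ctsf, Ctsh, Ctsk, Ctss and Ctsc. They are 10 of the 55416 genes in each deposited table, and each of the 10 passed the filter on low counts. Their RNA was followed in a shin muscle, the tibialis anterior, of male C57BL/6 (C57BL/6NCrlOri) mice 6 to 8 weeks old. The control group had no tumour and the labels name no antibody for it (n = 5). The other 3 groups each had cells of the tumour line KrasIKKaL placed in the trachea. One was given a rat IgG2b of clone LTF-2 as an isotype control (the IgG group, n = 4), at a dose not given. Another received an antibody against PD-L1 (clone 10F.9G2, 200 µg per kg, n = 3), a checkpoint ligand that restrains T cells. The last received an antibody against CD8a (clone 2.43, 200 µg, n = 3), the coreceptor of cytotoxic T cells. These 2 antibodies went into the abdomen 3 times a week. The series' stated aim is to find targets against cachexia and against the muscle side effects of immunotherapy. The tumour came from 1 cell line, and control differs from every other group in both tumour and injected antibody, so the 2 cannot be told apart against control.

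Cathepsins are made as inactive proenzymes, are sorted to lysosomes largely by mannose 6-phosphate receptors, and are activated there by cleavage at acidic pH. Most are cysteine proteases, but Ctsd encodes an aspartic protease and Ctsa a serine carboxypeptidase. In muscle they degrade proteins and organelles delivered by autophagy, and Ctsl is known as a gene that rises in wasting muscle. In antigen-presenting cells, cathepsins S and L trim the invariant chain of class II molecules. Tfeb, Tfe3 and Mitf are transcription factors that bind an E-box, CACGTG, in the promoters of many lysosomal genes.

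That E-box was searched on both strands in the 250 bases before each start in the RefSeq promoter table (build GRCm38.p6). The table held 9 entries for 8 of the 10 cathepsins, and Ctsb and Ctsh had none. Of the 9 entries 4 held it, those of Ctsl, Ctsd and Ctsf and 1 of the 2 of Ctsa, against 6.02% of all 32851 entries. The stretches around each match are shown for all 4 genes that carry it. Of these, Ctsl and Ctsd were higher in IgG than in control. Ctsf passed the main test only in anti-PD-L1 against control, and Ctsa in no comparison. Ctsz, Ctsc and Ctss, whose entries lack the E-box, differed between groups about as much as Ctsd or more. A part of the E-box in any difference was not tested. Capitals mark the E-box. The Ctsl and Ctsa stretches and the Ctsd stretch nearer the start overlap an exon that GENCODE annotates for the same gene, so they lie before the RefSeq start but not wholly before every annotated start.
Ctsl, chr13:64370741-64370766, minus strand, 236 bases before the start: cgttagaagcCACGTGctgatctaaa
Ctsd, chr7:142388057-142388077, minus strand, at the far end of the window: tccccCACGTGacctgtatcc
Ctsd, chr7:142387910-142387935, minus strand, 98 bases before the start: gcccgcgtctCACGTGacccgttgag
Ctsf, chr19:4855076-4855101, plus strand, 79 bases before the start: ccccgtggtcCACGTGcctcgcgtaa
Ctsa, chr2:164833751-164833772, plus strand, 12 bases before the start: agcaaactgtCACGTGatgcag
The entries of Ctsz, Ctsk, Ctss and Ctsc and the other entry of Ctsa (chr2:164832622-164832871) did not hold these letters. That Ctsa entry overlaps no annotated exon of the gene. The longer palindromic CLEAR element, an E-box with GT before it and AC after it (0.24% of all entries), the FoxO core GTAAACA (3.17%) and the STAT motif TTCCNGGAA (0.913%) were found in 0 of the 9 cathepsin entries. These are matches of letters in a window and not sites shown to be bound.

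The 15 libraries held 15894822 to 22459370 expected counts each. Mitochondrial genes took 11.1% to 23.1% of them, with group means of 20.5% in control, 14.5% in IgG, 12.8% in anti-PD-L1 and 21.3% in anti-CD8a. Muscle fibre markers summed to between 62275 and 121588 CPM (read counts divided by TMM-adjusted library totals), with none of the 9 at 0 throughout a group. Nothing in the labels ties every library to a mouse of its own, so p-values measure the spread between these libraries, which may be technical. Over the genes tested, 3 libraries lay nearer to another group than to their own. The root mean square difference of IgG replicate 2 was 0.65 (log2 CPM) from the anti-PD-L1 libraries and 0.77 from the other IgG libraries, and that of anti-PD-L1 replicate 2 was 0.68 from IgG and 0.73 from its own group. That of anti-CD8a replicate 3 was 0.580 from control and 0.584 from its own group, a small margin. Results that turn on these libraries are given with and without them.

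Ctsl had the largest difference of the 10 between tumour-bearing IgG mice and controls. In control the libraries held 80.4, 81.3, 71.8, 77.5 and 89.9 CPM. In IgG they held 463, 226, 375 and 459 CPM. In anti-PD-L1 they held 298, 394 and 151 CPM, and in anti-CD8a 81.1, 97.8 and 85.5 CPM. Every IgG and anti-PD-L1 library lay above every control and anti-CD8a library, and the anti-CD8a range overlapped that of control. In edgeR's quasi-likelihood test with Benjamini-Hochberg adjustment over 14372 genes, Ctsl was 4.75-fold higher in IgG than in control (log2 fold change 2.25 ± 0.24, SE, adjusted p = 2.25e-06). It was 3.50-fold higher in anti-PD-L1 than in control (1.81 ± 0.25, adjusted p = 0.000132) and 4.32-fold lower in anti-CD8a than in IgG (-2.11 ± 0.29, adjusted p = 5.32e-05). Between anti-CD8a and control the log2 difference was 0.14 ± 0.25 (adjusted p = 0.945). The antibody groups differed by 1.67 ± 0.29 on the log2 scale, with anti-PD-L1 higher (adjusted p = 0.002).

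Anti-PD-L1 and IgG overlapped in Ctsl. Their means of 281 ± 122 and 381 ± 111 CPM (SD, n = 3 and 4) gave a log2 difference of -0.44 ± 0.27 (adjusted p = 0.297). IgG replicate 2 was lowest among the IgG libraries, and anti-PD-L1 replicate 2 highest among its own. Without these libraries the difference was -0.95 (adjusted p = 0.0083), which passes. This was the only 1 of 25 alternatives that changed the call, and leaving out any single library did not. Over the genes tested each of these libraries lay nearer to the other group than to its own. Leaving out both thus favours a wider difference and cannot decide whether the groups differ. The other Ctsl calls did not depend on them: without both, Ctsl in IgG against control was 2.44 and in anti-CD8a against IgG -2.30, on the log2 scale. Of the 9 Ctsl-like genes of the placental cluster, 8 were at 0 in every library, and the highest count of any was 1.

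**Figure D1:**
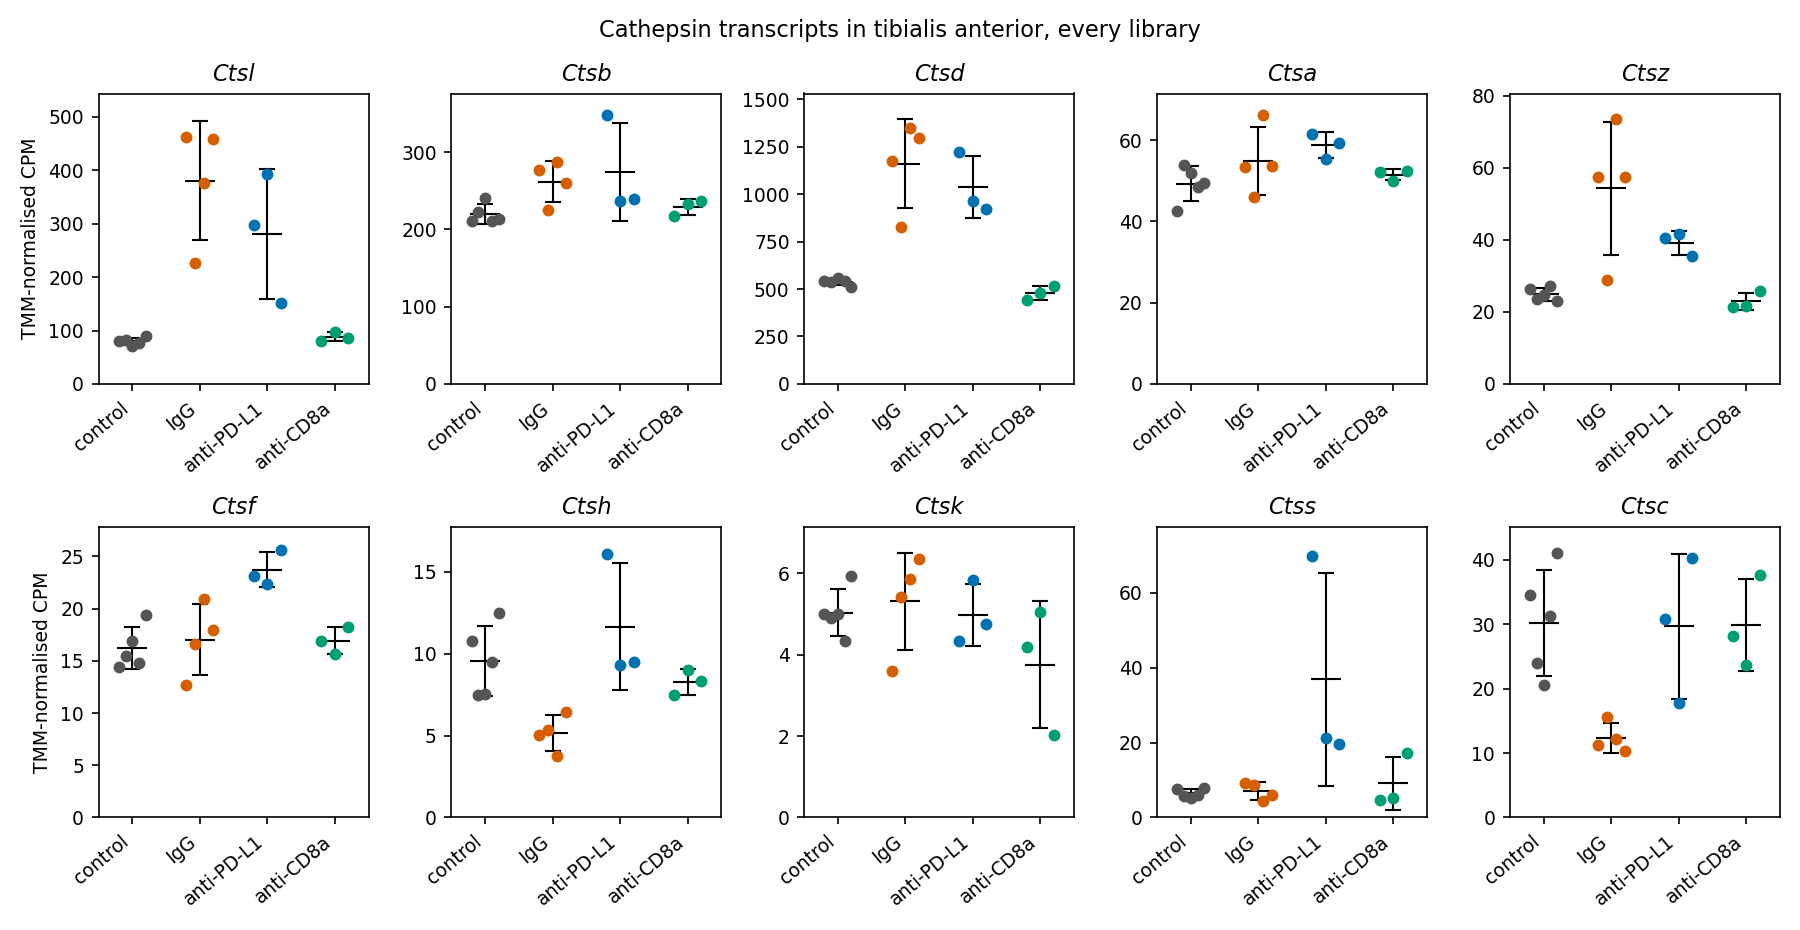
Level of each cathepsin in every library (TMM-normalised CPM, linear axes from 0, each gene on its own scale). Points are libraries, horizontal bars are group means and error bars are SD over 5, 4, 3 and 3 libraries. The IgG and anti-PD-L1 points of Ctsl and Ctsd lie above all control and anti-CD8a points, those of Ctsc and Ctsh are lowest in IgG, and Ctss is highest in anti-PD-L1.

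Ctsd, the aspartic endopeptidase and the most abundant of the 10 in every group, was also higher in IgG and anti-PD-L1 than in control and anti-CD8a. Control libraries held 542, 535, 557, 540 and 513 CPM, and anti-CD8a libraries 442, 482 and 516 CPM. IgG libraries held 1174, 825, 1349 and 1294 CPM, and anti-PD-L1 libraries 1223, 961 and 922 CPM. The lowest IgG value was again that of replicate 2, and it still lay above the highest control value. Ctsd rose 2.16-fold in IgG over control (1.11 ± 0.15, adjusted p = 1.31e-05) and 1.93-fold in anti-PD-L1 over control (0.95 ± 0.16, adjusted p = 0.000425). It was 2.42-fold lower in anti-CD8a than in IgG (-1.27 ± 0.17, adjusted p = 5.28e-05), and anti-PD-L1 exceeded anti-CD8a by 1.11 ± 0.18 (log2, adjusted p = 0.00128). Anti-PD-L1 against IgG gave -0.16 ± 0.17 (adjusted p = 0.548).

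Ctsz, a cysteine carboxypeptidase also called cathepsin X, was the third of the genes higher in both groups. Its control libraries held 26.2, 23.7, 24.6, 27.3 and 23.0 CPM, and anti-CD8a libraries 21.4, 21.7 and 25.7 CPM. IgG libraries held 57.4, 29.0, 73.5 and 57.6 CPM, and anti-PD-L1 libraries 40.4, 41.7 and 35.4 CPM. All values of IgG and anti-PD-L1 exceeded those of control, IgG replicate 2 by the least. The rise in IgG over control was 2.18-fold (1.12 ± 0.19, adjusted p = 0.000111), and anti-CD8a was 2.37-fold lower than IgG (-1.24 ± 0.22, adjusted p = 0.000362). The rise in anti-PD-L1 over control was 1.57-fold (0.65 ± 0.20, adjusted p = 0.0205), and the call was lost without anti-PD-L1 replicate 1 (adjusted p = 0.0555) or 2 (0.0751). Anti-PD-L1 exceeded anti-CD8a by 0.77 ± 0.23 (log2, adjusted p = 0.0284), also a call that single libraries removed, with adjusted p of 0.0595 and 0.09 without anti-PD-L1 replicates 1 and 2 and 0.109 and 0.101 without anti-CD8a replicates 1 and 2. Anti-PD-L1 against IgG was -0.47 ± 0.21 (adjusted p = 0.171), and passed at -0.68 (0.00618) without IgG replicate 2.

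Ctsc and Ctsh went the other way in IgG. Ctsc encodes dipeptidyl peptidase I, which removes dipeptides from the amino end and activates the granule proteases of leukocytes. Control libraries held 34.5, 23.9, 20.5, 31.3 and 41.0 CPM and IgG libraries 11.3, 15.7, 12.2 and 10.4 CPM, with no overlap. Anti-PD-L1 libraries held 30.8, 17.8 and 40.4 CPM and anti-CD8a libraries 28.2, 23.7 and 37.7 CPM. Those groups overlapped control and lay above every IgG library. Ctsc was 2.45-fold lower in IgG than in control (-1.29 ± 0.25, adjusted p = 0.000358). It was 2.41-fold higher in anti-CD8a than in IgG (1.27 ± 0.27, adjusted p = 0.00136) and 2.40-fold higher in anti-PD-L1 (1.26 ± 0.27 against IgG, adjusted p = 0.0189). The last call was lost without IgG replicate 1 (adjusted p = 0.0559) or 4 (0.0605) and without anti-PD-L1 replicate 1 (0.0722) or 3 (0.114). Anti-PD-L1 and anti-CD8a differed from control by -0.03 ± 0.26 and -0.02 ± 0.26 on the log2 scale. The granule proteases that Ctsc activates (Gzma, Gzmb, Elane, Prtn3 and Ctsg were listed) were too low to test, 0 of 5 passing the filter.

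Ctsh, mainly an aminopeptidase, had fewer reads, between 60 and 338 counts in a library. Control libraries held 10.8, 7.49, 7.53, 9.47 and 12.5 CPM, and IgG libraries 5.03, 5.36, 3.78 and 6.41 CPM. Anti-PD-L1 libraries held 16.1, 9.30 and 9.50 CPM, and anti-CD8a libraries 7.46, 9.02 and 8.32 CPM. IgG lay below all libraries of the other groups. The fall in IgG against control was 1.86-fold (-0.89 ± 0.21, adjusted p = 0.00216). Anti-PD-L1 was 2.26-fold above IgG (1.17 ± 0.24, adjusted p = 0.0146), which did not pass once anti-PD-L1 replicate 1 was left out (0.87, adjusted p = 0.0924). Anti-CD8a was 1.61-fold above IgG (0.68 ± 0.24, adjusted p = 0.0276), a call lost without IgG replicate 3 (adjusted p = 0.077) or anti-CD8a replicate 2 (0.0837) or 3 (0.0544). On log2(TPM + 0.5), tested with limma, none of these 3 passed (adjusted p = 0.133, 0.112 and 0.608). The length that RSEM gave Ctsh ranged from 973 to 1582 bases between libraries, so its TPM and its counts are not on one scale.

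Ctss, an endopeptidase of antigen-presenting cells that stays active at neutral pH, differed mainly in anti-PD-L1. Control libraries held 7.57, 5.78, 5.06, 6.00 and 7.89 CPM, and IgG libraries 9.19, 8.79, 4.28 and 5.92 CPM. Anti-PD-L1 libraries held 69.8, 21.1 and 19.7 CPM, and anti-CD8a libraries 4.68, 5.31 and 17.3 CPM. All anti-PD-L1 values exceeded all others, with replicate 1 far above the other 2, while anti-CD8a replicate 3 stood apart from its own group. Ctss was 5.69-fold higher in anti-PD-L1 than in control (2.51 ± 0.43, adjusted p = 0.00062), and the log2 difference was 1.66 without anti-PD-L1 replicate 1. It was 5.22-fold above IgG (2.38 ± 0.47, adjusted p = 0.0128) and 4.03-fold above anti-CD8a (2.01 ± 0.51, adjusted p = 0.0131). Against IgG the call was lost without anti-PD-L1 replicate 1 (1.53, adjusted p = 0.0924). Against anti-CD8a it was lost without that library (1.16, adjusted p = 0.0791) and without anti-CD8a replicate 1 (0.0634) or 2 (0.0638). IgG against control gave 0.12 ± 0.42 (adjusted p = 0.817) and anti-CD8a against control 0.50 ± 0.45 (adjusted p = 0.867).

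The 250 bases before the RefSeq start of Ctss are shown for the member with the widest range, 16.3-fold between its highest and lowest library. Capitals mark a direct repeat, GAAANNGAAA, that resembles the interferon-stimulated response element. It was searched after the window had been seen, occurred in 2.98% of all entries and in no other cathepsin entry, and starts 21 bases before the start.
Ctss, chr3:95526536-95526785, plus strand: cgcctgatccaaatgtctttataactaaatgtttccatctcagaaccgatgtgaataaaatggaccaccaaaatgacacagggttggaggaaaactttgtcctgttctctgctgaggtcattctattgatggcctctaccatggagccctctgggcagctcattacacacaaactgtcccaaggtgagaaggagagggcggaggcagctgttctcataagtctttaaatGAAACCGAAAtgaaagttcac

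Macrophages express several cathepsins, and the levels of their markers are given beside those of these genes. The summed level of 10 markers lay between 104 and 188 CPM in control, between 68.4 and 105 in IgG, between 199 and 628 in anti-PD-L1 and between 73.4 and 239 in anti-CD8a. No marker was at 0 throughout a group. Lyz2 was the largest part, with means of 63.8, 30.1, 211 and 74.0 CPM in control, IgG, anti-PD-L1 and anti-CD8a. The mean sums were 148, 84.6, 380 and 141 CPM in the same order. The highest anti-PD-L1 sum was that of replicate 1, the highest anti-CD8a sum that of replicate 3 and the highest control sum that of replicate 5. These libraries were highest in Ctss within their groups. Other libraries did not keep that order. In IgG, replicate 1 had the lowest sum (68.4) and the highest Ctss (9.19 CPM), and replicate 4 the highest sum (105) with Ctss of 5.92 CPM. Anti-PD-L1 replicate 3 had a higher sum than replicate 2 (312 against 199) and a lower Ctss (19.7 against 21.1 CPM). In IgG against control, 8 of the 9 markers tested were lower and Cd68 was higher, beside 28.4% and 30.2% of all genes. Anti-PD-L1 exceeded IgG in 8 of 9, where 3.96% of all genes were higher. Cd68, which encodes a lysosomal membrane protein abundant in macrophages, averaged 2.81 CPM in control, 21.3 in IgG, 10.1 in anti-PD-L1 and 2.26 in anti-CD8a. In anti-CD8a against IgG 6 markers were higher and 1 lower, beside 23.2% and 24.8% of all genes. Only 1 was higher without anti-CD8a replicate 3, where 2887 of 14657 genes were higher. Fibroblast markers summed to between 1035 and 1429 CPM in control, between 505 and 716 in IgG, between 1060 and 1409 in anti-PD-L1 and between 798 and 954 in anti-CD8a, so the sum was lowest in IgG. Dcn was its largest part, with means of 628, 576, 1047 and 524 CPM in the same order. Single markers differed from the sum: Col1a1 averaged 101, 3.44, 9.03 and 53.5 CPM. In IgG against control 7 of the 8 markers were lower and 0 higher, beside 28.4% and 30.2% of all genes, and 6 to 8 were lower over the alternatives. In anti-CD8a against IgG 6 were higher and 0 lower, beside 23.2% and 24.8%, and 6 were higher under every alternative. Anti-PD-L1 exceeded IgG in 6, beside 3.96%, with 0 to 8 over the alternatives. In anti-PD-L1 against control 4 of the 8 markers were lower and 1 higher, beside 13.9% and 20.8% of all genes. Neutrophil markers summed to 0.354 to 3.74, 2.73 to 8.61, 11.0 to 48.4 and 2.61 to 8.07 CPM in the same order, with Ly6g at 0 in every control and IgG library. The part of these cells in the levels of any cathepsin was not tested, and in bulk tissue fewer cells of a type and less RNA per cell cannot be told apart.

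**Figure D2:**
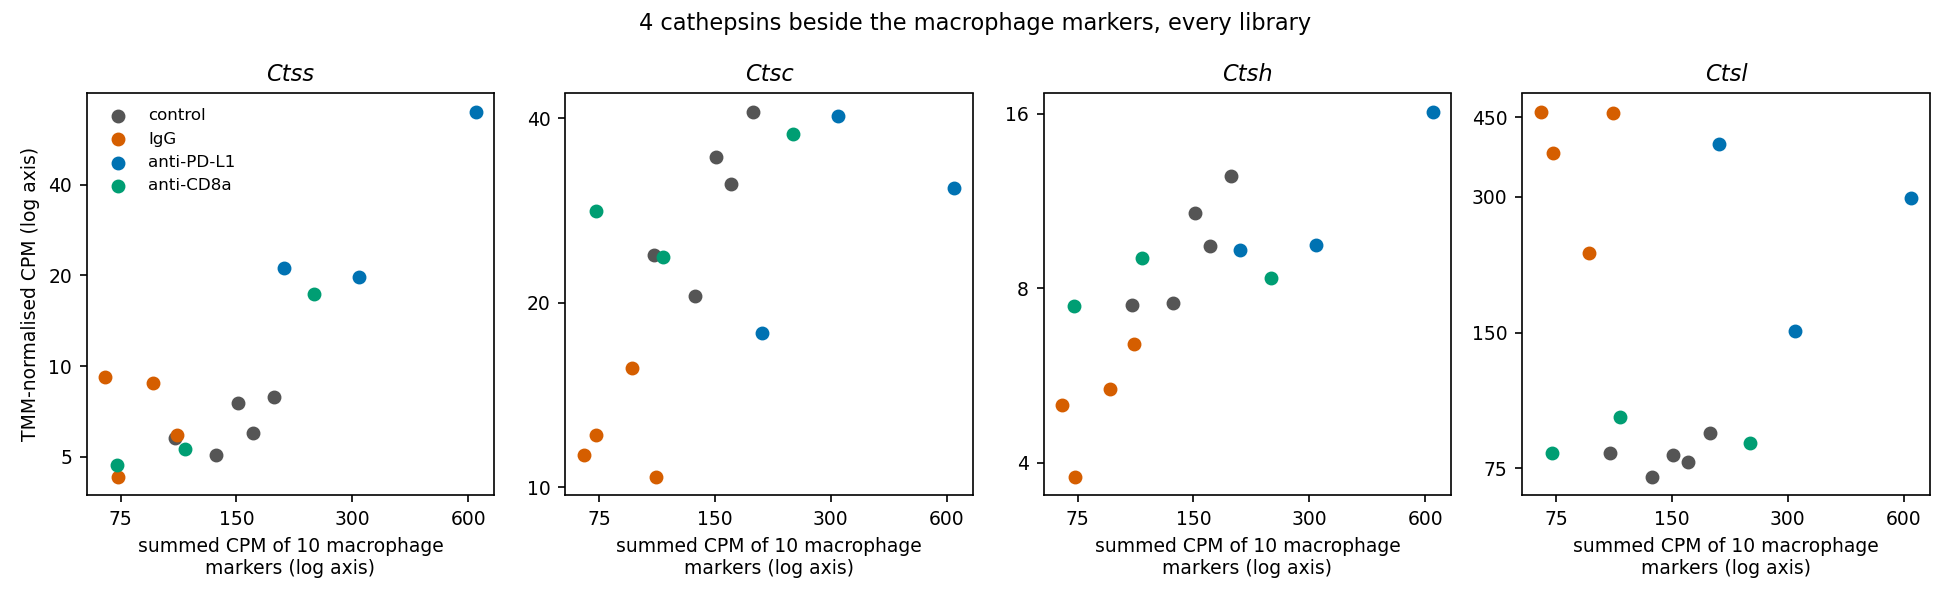
Level of 4 cathepsins (TMM-normalised CPM, log axes) against the summed CPM of 10 macrophage markers (log axis), 1 point per library, coloured by group. The anti-PD-L1 library with the highest marker sum (628 CPM) has the highest Ctss (69.8 CPM). In IgG the library with the lowest sum (68.4 CPM) has the highest Ctss of its group (9.19 CPM). The IgG libraries have sums of 68.4 to 105 CPM and Ctsl of 226 to 463 CPM. Lyz2 is the largest part of the mean sum in every group.

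Ctsf, a cysteine endopeptidase, rose in anti-PD-L1 over control. Control libraries held 14.4, 15.5, 16.9, 14.8 and 19.4 CPM, IgG libraries 12.7, 16.6, 20.9 and 18.0 CPM, anti-PD-L1 libraries 23.2, 22.4 and 25.6 CPM, and anti-CD8a libraries 16.9, 15.6 and 18.2 CPM. Every anti-PD-L1 library lay above every other library. The rise over control was 1.46-fold (0.55 ± 0.15, adjusted p = 0.0105), and it missed the threshold with upper-quartile scaling (0.41, adjusted p = 0.0621). The differences from IgG (0.48 ± 0.16, adjusted p = 0.0763) and from anti-CD8a (0.49 ± 0.17, adjusted p = 0.0528) missed it as well, although the ranges did not overlap. The latter passed without IgG replicate 1 (adjusted p = 0.0277) or 3 (0.0381). With limma on log2(TPM + 0.5) the differences from IgG and from anti-CD8a both passed (adjusted p = 0.0423 and 0.00825).

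Ctsb, Ctsa and Ctsk were called in no comparison by edgeR. With limma on log2(TPM + 0.5), Ctsb and Ctsa passed in IgG against control (adjusted p = 0.0328 and 0.0143). They also passed there in anti-PD-L1 against control (0.00434 and 0.00111) and in anti-PD-L1 against anti-CD8a (0.0175 and 0.0146). Ctsb, a cysteine protease that acts as an endopeptidase and a dipeptidyl carboxypeptidase, ranged from 211 to 348 CPM over the 15 libraries. Its differences from control were 0.25 ± 0.13 in IgG (adjusted p = 0.103) and 0.32 ± 0.14 in anti-PD-L1 (adjusted p = 0.0847). The former passed by a small margin without IgG replicate 2 (0.32, adjusted p = 0.0496) or anti-PD-L1 replicate 1 (0.25, adjusted p = 0.0499). Ctsa, which protects the lysosomal enzymes Neu1 and Glb1, ranged from 42.7 to 66.3 CPM. Its differences from control were 0.15 ± 0.11 in IgG (adjusted p = 0.258) and 0.25 ± 0.12 in anti-PD-L1 (adjusted p = 0.12), where the ranges did not overlap. Ctsk, the collagen-degrading protease of osteoclasts, was the rarest of the 10 in counts, with 41 to 136 per library and 2.03 to 6.35 CPM. Its log2 differences from control were 0.08 ± 0.23 in IgG, -0.02 ± 0.25 in anti-PD-L1 and -0.42 ± 0.26 in anti-CD8a. These standard errors set what could be seen at this depth and number of libraries.

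Counted over the family, 3 of the 10 were higher and 2 lower in IgG than in control, where 30.2% of all genes tested were higher and 28.4% lower. In anti-PD-L1 against control 5 were higher and 0 lower, against 20.8% and 13.9% of all genes (34.7% in either direction). In anti-CD8a against control, edgeR called 0 of the 10, with 0 at an unadjusted p under 0.05 and 0 by DESeq2 and by limma on TPM, and 0.0139% of all genes were called, 0.00696% in each direction. In anti-CD8a against IgG 2 were higher and 3 lower, against 23.2% and 24.8% of all genes. In anti-PD-L1 against IgG 3 were higher and 0 lower, where 3.96% of all genes were higher and 1.54% lower, and 5.5% in either direction. This count was 0 without anti-PD-L1 replicate 1, and the number called rose to 4 once IgG replicate 2 was left out. The calls over all genes moved as well. In the main fit 569 of 14372 were higher and 222 lower. Without anti-PD-L1 replicate 1 these were 137 and 7 of 14660, and without IgG replicate 2 they were 1451 and 1153 of 14317. In anti-PD-L1 against anti-CD8a 4 were higher and 0 lower, against 12.1% and 7.65% of all genes (19.7% in either direction). Of the family, 2 were called without anti-PD-L1 replicate 1 or anti-CD8a replicate 1 or 2. Over all genes 1583, 733 and 786 were higher in these runs and 877, 519 and 526 lower. In the main fit 1738 were higher and 1099 lower. The shares called in the 2 comparisons of IgG with control and with anti-CD8a, 58.5% and 48% of all genes, are near those of the family, 5 of 10 in each. The comparisons share libraries, so their counts are not independent. The median log2 difference of the 10 was 0.14 in IgG against control, 0.43 in anti-PD-L1 against control and -0.14 in anti-CD8a against IgG, beside -0.02, 0.05 and 0.02 over all genes tested.

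**Figure D3:**
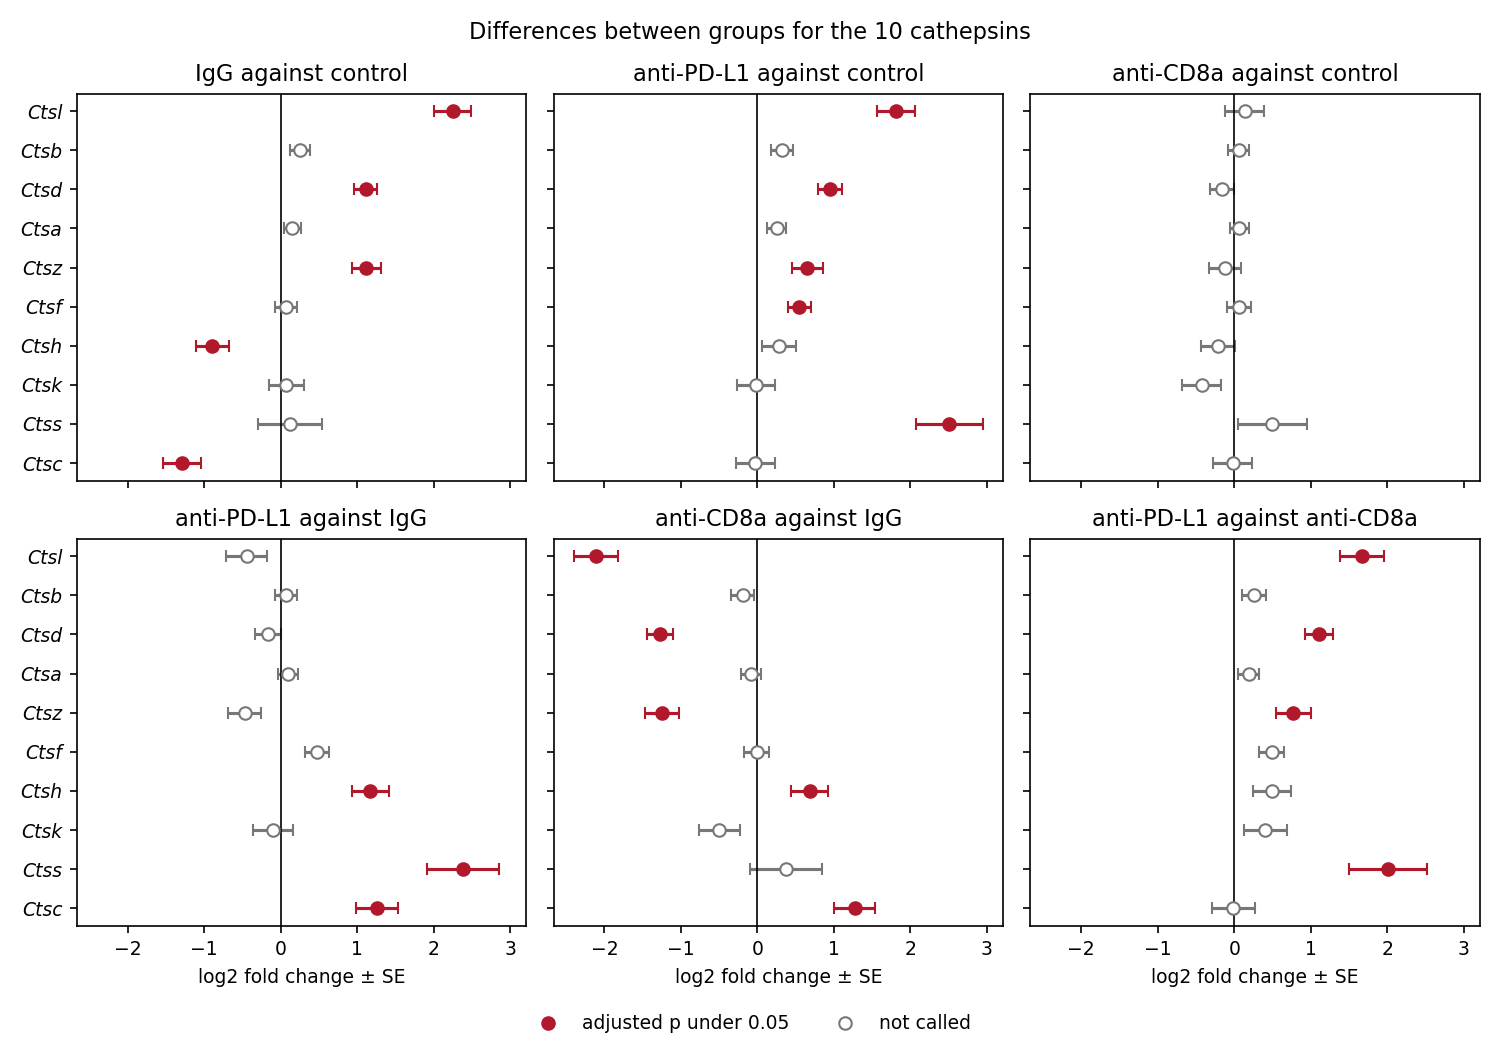
Log2 fold change of each cathepsin in the 6 comparisons, with its standard error (horizontal bars). Filled red points passed an adjusted p of 0.05 in edgeR's quasi-likelihood test and open grey points did not. Ctsl, Ctsd and Ctsz lie right of 0 in IgG against control and left of 0 in anti-CD8a against IgG, Ctsc and Ctsh the reverse, and no point is filled in anti-CD8a against control.

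Set against each other per transcript length, in the deposited TPM (transcript abundance scaled to a common sum), the cathepsins formed a steep order. In control it ran from Ctsd (257 ± 23.7 TPM, SD, n = 5) over Ctsb (60.9 ± 9.32), Ctsl (47.6 ± 9.52), Ctsa (23.4 ± 4.27) and Ctsz (18.2 ± 1.53) to Ctsf (11.8 ± 1.99), Ctsc (11.3 ± 3.82), Ctsh (8.20 ± 3.27), Ctss (5.10 ± 1.27) and Ctsk (3.50 ± 0.741). Neighbours overlapped in range from Ctsf downwards and also between Ctsb and Ctsl and between Ctsa and Ctsz. Ctsb still exceeded Ctsl in 5 of 5 control and 3 of 3 anti-CD8a libraries. In IgG and anti-PD-L1 this was turned around: Ctsl, at 273 ± 99.3 and 213 ± 84.5 TPM, lay above Ctsb, at 80.2 ± 11.3 and 96.8 ± 21.1 TPM, in 4 of 4 and 3 of 3 libraries. Ctss, second from last in control, reached 37.4 ± 29.0 TPM in anti-PD-L1, where its range overlapped those of Ctsa and Ctsz. The 10 genes together held 448 ± 52.6 TPM in control, 1112 ± 253 in IgG, 1117 ± 183 in anti-PD-L1 and 434 ± 41.0 in anti-CD8a (SD). Ctsl made up 10.6% ± 1.14 of this sum in control, 24.1% ± 4.41 in IgG, 18.9% ± 6.89 in anti-PD-L1 and 11.3% ± 1.12 in anti-CD8a. The share of Ctsd was 57.6%, 58.2%, 57.7% and 55.3% in the same order, and that of Ctsb 13.6%, 7.37%, 8.68% and 14.2%. These are shares of transcripts, not of enzyme. The sums are in TPM, without the TMM adjustment between libraries. On log2(TPM + 0.5) the median of all genes tested was 0.33 above control in anti-PD-L1 and 0.14 in IgG. In the main fit these medians were 0.05 and -0.02, so the TPM sums do not measure fold changes between groups. The length that RSEM gave Ctsl ranged from 1576 to 1954 bases between libraries, which moves its TPM but not its counts.

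**Figure D4:**
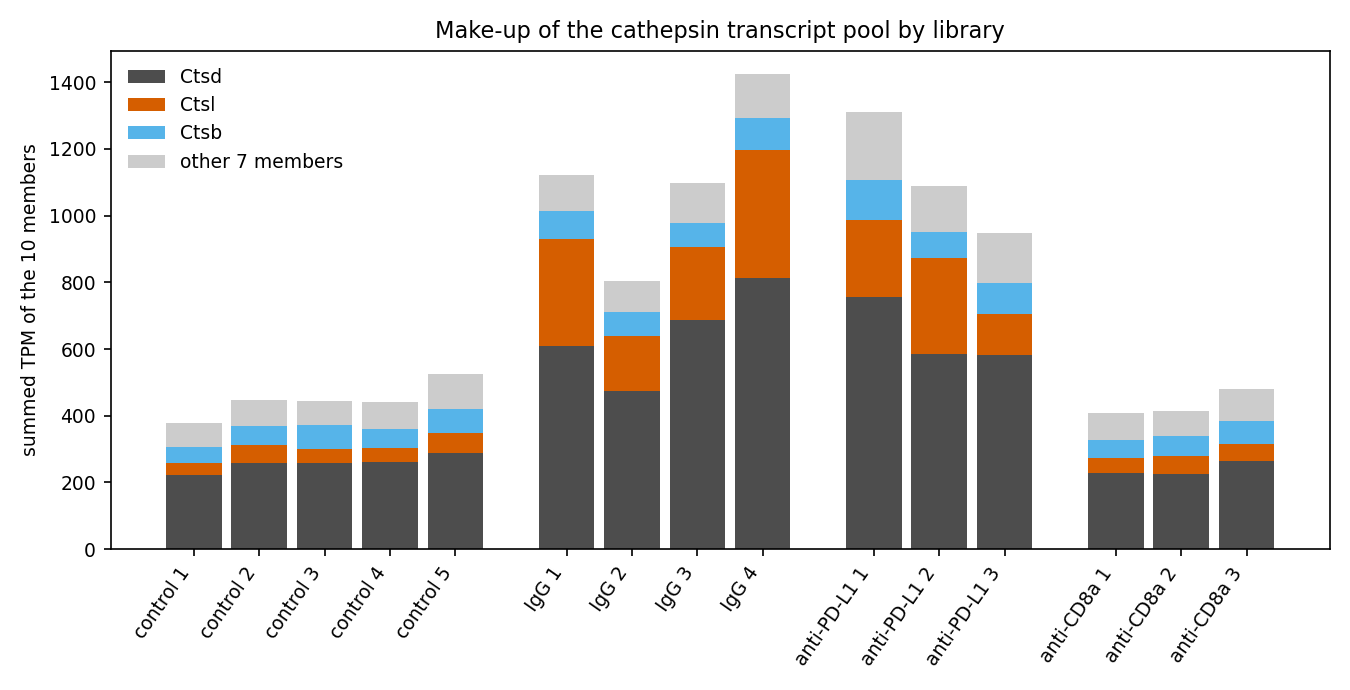
Summed TPM of the 10 cathepsins in each library, stacked by gene (Ctsd, Ctsl, Ctsb and the other 7 together; axis from 0). All IgG and anti-PD-L1 bars (804 to 1423) stand above all control and anti-CD8a bars (378 to 526), and the Ctsl segment is the part that gains most in share.

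Among the members, the profiles over the 15 libraries lay closest for Ctsb and Ctsa (root mean square difference of centred log2 CPM 0.13). Then came Ctsd and Ctsz (0.19) and Ctsa and Ctsf (0.20), and Ctsh and Ctsc were 0.41 apart. This difference is small for any genes that vary little. The root mean square of the centred profile itself was 0.15 for Ctsa, 0.19 for Ctsb and 0.27 for Ctsf, against 0.57 for Ctsd and 0.55 for Ctsz. Ctsa thus lay nearer to a flat profile than to Ctsf. The genes outside the family with profiles most like Ctsl were Daxx (0.21), Xpa (0.22), Paox (0.23), Ddx27 (0.24) and Akt1 (0.24), where the median over the genes compared was 1.11. Akt1, which encodes a kinase of insulin signalling, had mean levels of 48.1 CPM in control, 241 in IgG, 136 in anti-PD-L1 and 50.7 in anti-CD8a. Among the genes nearest to Ctss were Mpeg1 (0.35) and Itgb2 (0.39). Mpeg1, a pore-forming protein of macrophages, averaged 5.28 CPM in control, 4.13 in IgG, 20.2 in anti-PD-L1 and 6.38 in anti-CD8a. Nearest to Ctsc were Sema6d, Fcgrt and another cathepsin, Ctso (0.23). For Ctsd they were Fam120b, Lrrc59 and Dym, for Ctsz Eif1, Mrps18b and C1qbp, and for Ctsh BC028528, Iah1 and S100a13. For Ctsb they were Necap2, Dis3l and Scrib, for Ctsa Cbx3, Srprb and Hsdl1, for Ctsf Vat1, Wrap73 and Ccs, and for Ctsk Snapc2, Arl15 and Clp1. Ctsb, Ctsa, Ctsf and Ctsk varied little (0.15 for Ctsa to 0.38 for Ctsk), so nearness to them need not mean a shared pattern. All these likenesses are over the same 15 libraries, which share groups and depth.

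Of 13 further cathepsin genes listed, 1 passed the filter. This was Ctso, a cysteine protease, at 9.29 CPM in control, 3.59 in IgG, 7.37 in anti-PD-L1 and 7.92 in anti-CD8a (means). It was lower in IgG than in control (-1.37 ± 0.22, adjusted p = 8.98e-05) and higher in anti-CD8a than in IgG (1.14 ± 0.25, adjusted p = 0.00147). Anti-PD-L1 exceeded IgG by 1.03 ± 0.25 (adjusted p = 0.0288), a call that 7 of 25 alternatives removed, among them leaving out replicate 1 or 3 of either group, or replicate 4 of IgG.

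The transcription factors listed for lysosomal and atrophy genes were higher in IgG than in control in 5 of 6 cases, where 30.2% of all genes were higher, and 4 to 6 passed over the alternatives. The fifth, Foxo4 (0.39 ± 0.15, adjusted p = 0.0362), lost its call under 11 of 25 alternatives, among them leaving out IgG replicate 1 or 2, control replicate 2, 4 or 5 or anti-CD8a replicate 1. Foxo1 stood at 214 against 51.3 CPM (2.06 ± 0.49, adjusted p = 0.0021) and Foxo3 at 125 against 31.4 CPM (2.0 ± 0.26, adjusted p = 1.34e-05), both regulators of atrophy genes. Mitf stood at 31.5 against 12.3 CPM (1.36 ± 0.15, adjusted p = 3.1e-06) and Tfeb at 77.7 against 43.2 CPM (0.85 ± 0.16, adjusted p = 0.000325). In anti-CD8a against IgG 4 of 6 were lower (24.8% of all genes), Foxo3 by the most (-1.70 ± 0.31, adjusted p = 0.000419), then Foxo1 (-1.52 ± 0.58, 0.0396), Mitf (-1.34 ± 0.18, 4.3e-05) and Tfeb (-0.53 ± 0.18, 0.0257). Only 2 were lower without anti-CD8a replicate 1 or 2 or with upper-quartile scaling. Foxo1 also lost its call without IgG replicate 1 or 2 or anti-CD8a replicate 3, and Tfeb without IgG replicate 3. In anti-PD-L1 against control 3 were higher (20.8% of all genes), Foxo3 (1.51 ± 0.28, adjusted p = 0.000897), Mitf (0.83 ± 0.16, 0.00132) and Tfeb (0.77 ± 0.17, 0.00331). In anti-PD-L1 against IgG edgeR called none of the 6, the smallest p being that of Mitf (-0.53 ± 0.17, adjusted p = 0.0697), which passed by DESeq2 and in edgeR once replicate 2 of either group was left out.

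Of 12 genes for sorting enzymes to lysosomes, 4 were higher and 5 lower in IgG than in control, near the 30.2% and 28.4% of all genes, and 2 or 3 were lower without IgG replicate 1, 3 or 4. Gga1, an adaptor for mannose 6-phosphate receptors, was higher (0.94 ± 0.14, adjusted p = 4.67e-05), as were the retromer subunits Vps26a (0.79 ± 0.13, 9.08e-05) and Vps35 (0.72 ± 0.13, 0.0003). Sort1, which encodes the sorting receptor sortilin, was lower (-0.76 ± 0.24, adjusted p = 0.0119). In anti-CD8a against IgG 4 were lower and 2 higher, beside 24.8% and 23.2% of all genes. Among the lower were Gga1 (-0.92 ± 0.17, adjusted p = 0.0004), Vps26a (-0.65 ± 0.15, 0.00238) and Vps35 (-0.60 ± 0.16, 0.00518). Among the higher was Sort1 (0.81 ± 0.26, 0.0193), and 1 gene of the list was higher without IgG replicate 3 or anti-CD8a replicate 2. Sort1 lost its call without IgG replicate 3 or anti-CD8a replicate 1. In anti-PD-L1 against control 4 were higher and 0 lower, beside 20.8% and 13.9% of all genes. The higher ones were Gnptg (0.62 ± 0.16, adjusted p = 0.00839), Gga1 (0.57 ± 0.15, 0.00982), Vps35 (0.51 ± 0.14, 0.0138) and M6pr (0.49 ± 0.11, 0.00387). The call of Vps35 was lost without anti-PD-L1 replicate 1.

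Among the genes that act with cathepsins in lysosomes, 2 of 6 were higher in IgG than in control and 1 lower, again near the shares of all genes. Neu1, the sialidase held by Ctsa, was higher (0.81 ± 0.11, adjusted p = 2.53e-05), as was Psap, the precursor of saposins (0.45 ± 0.15, 0.0149), while Glb1, the galactosidase of the same complex, was lower (-0.74 ± 0.29, 0.0395). Psap lost its call without IgG replicate 3 or 4, and Glb1 without IgG replicate 1 or 2 or control replicate 1, 4 or 5. Lgmn, the legumain that processes several cathepsins, just missed the threshold (-0.46 ± 0.19, adjusted p = 0.0532) and was called lower under 14 of 25 alternatives, among them leaving out IgG replicate 2 or 4, replicate 1 or 3 of anti-PD-L1 or replicate 2 or 3 of anti-CD8a. Over the alternatives the number lower ran from 0 to 2. In anti-PD-L1 against IgG 3 of the 6 were higher and 0 lower, beside 3.96% and 1.54% of all genes, and 0 to 3 were higher over the alternatives. In anti-PD-L1 against control 2 were higher and 0 lower, beside 20.8% and 13.9%. In anti-PD-L1 against anti-CD8a 2 were higher and 0 lower, beside 12.1% and 7.65%, with 0 to 3 higher over the alternatives. Anti-CD8a was lower than IgG in Neu1 (-0.68 ± 0.13, adjusted p = 0.000684) and higher in Lgmn (0.80 ± 0.22, 0.007). Of 5 inhibitor genes tested, 2 were higher and 2 lower in IgG than in control, beside 30.2% and 28.4% of all genes. Cstb, which encodes the cytosolic inhibitor cystatin B, was higher in IgG (0.85 ± 0.18, adjusted p = 0.000685) and in anti-PD-L1 (1.02 ± 0.19, 0.000926) and lower in anti-CD8a than in IgG (-0.71 ± 0.20, 0.00948). Cst3, the secreted cystatin C, was lower in IgG (-0.42 ± 0.12, adjusted p = 0.0076). Ctla2a (1.04 ± 0.38, adjusted p = 0.0287) and Ctla2b (-1.12 ± 0.30, 0.00519), which encode proteins like the cathepsin propeptide, had opposite signs in the same comparison. They are near-identical copies, so the division of reads between them is uncertain, and the call of Ctla2a was lost without IgG replicate 3 or 4 or control replicate 2 or 4.

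Class II genes, whose invariant chain Cd74 is a substrate of Ctss, were lower in IgG than in control in 5 of 6 cases, where 28.4% of all genes were lower, and in 3 without IgG replicate 3 or 4 or control replicate 5. Cd74 stood at 22.3 against 50.4 CPM (-1.18 ± 0.34, adjusted p = 0.00782) and H2-Eb1 at 5.63 against 13.7 CPM (-1.28 ± 0.38, 0.00937). In anti-CD8a against IgG 6 of 6 were higher (23.2% of all genes), with Cd74 at 66.0 CPM (1.57 ± 0.38, adjusted p = 0.00323), and 2 without anti-CD8a replicate 3. In anti-PD-L1 against IgG 6 of 6 were higher (3.96% of all genes), with Cd74 at 78.8 CPM (1.82 ± 0.38, adjusted p = 0.0164). That count was 2 and 3 without IgG replicate 1 and 3, and 0 without replicate 4 of IgG or replicate 3 of anti-PD-L1. Over all genes 152, 223, 187 and 153 were higher in these runs, in that order, against 569 in the main fit. Anti-PD-L1 against control called 1 of 6 higher, where 20.8% of all genes were higher. This was H2-DMa (1.18 ± 0.35, adjusted p = 0.0162), and the count was 0 without anti-PD-L1 replicate 1 but 3 without anti-CD8a replicate 3. Ctss in anti-CD8a against IgG was 0.37 ± 0.47 (adjusted p = 0.537), so Cd74 was called there and Ctss was not. Whether the 2 genes' differences differ was not tested. Within anti-CD8a both had a maximum far above the median, 121 against 46.5 CPM for Cd74 and 17.3 against 5.31 CPM for Ctss.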

How the data were processed

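Bulk RNA of 15 tibialis anterior libraries was compared. Per the labels, libraries were made with a directional MGIEasy kit. Per the submitters' processing notes, Trim Galore, STAR 2.7.9a and RSEM 1.3.3 were used. The build, annotation and strand setting are not given in the sources used here. The deposited values are RSEM expected counts and TPM per gene, made by the authors. Expected counts were rounded and fitted over the 4 groups in edgeR 4.0.16 (R 4.3.3; TMM, filterByExpr, quasi-likelihood, 11 residual degrees of freedom), and a gene was called at a Benjamini-Hochberg adjusted p under 0.05 over 14372 genes. The standard error is the absolute log2 fold change over the square root of F. Levels are TMM-normalised CPM, and TPM orders genes within a library. Unnamed genes took up to 0.386% of the counts of a library. The model was checked on simulated data. Of each list, up to 4 called genes of largest change were named, and of the genes most like a member the nearest 5 (Ctsl) or 3, not of Gm or Rik type; 1 gene that this rule names is not reported here. The members and lists were chosen with earlier results of these data known. Promoters are from RefSeq (GRCm38.p6). A protein comparison was planned and not run. Alternatives used DESeq2 1.42.0 and limma 3.58.1.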

Additional observations from a re-analysis of the deposited data

How the results depend on the processing

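Each of the 60 pairs of a cathepsin and a comparison was recomputed under 25 alternatives. Of the 22 called, 13 kept the call under all 25 and 9 lost it under at least 1. Of the 38 not called, 10 passed under at least 1, and 0 reversed. Replicate numbers did not pair the libraries: of 19 pairs with the same number, 3 had a correlation of deviations over 0.1 (-0.35 to 0.18). With the replicate block, 1 cathepsin was called in anti-PD-L1 against IgG and 2 in anti-PD-L1 against anti-CD8a. Of all 14372 genes, 68 were then higher and 1 lower in the former, and 1065 and 656 in the latter. With only the 2 groups fitted, 0 cathepsins were called in anti-PD-L1 against IgG, where 37 of 13417 genes were higher and 0 lower. Without both replicates 2, 5 were called there, where 2228 of 14643 genes were higher and 1985 lower. In anti-PD-L1 against control, 3 were called with upper-quartile scaling, where 2134 of 14372 genes were higher and 2661 lower. In anti-PD-L1 against anti-CD8a, 7 were called by limma on TPM, where 3607 of 14372 genes were higher and 415 lower. Leaving out 1 library at a time gave 5 to 6 calls in IgG against control, 4 to 5 in anti-PD-L1 against control, 0 to 4 in anti-PD-L1 against IgG, 4 to 5 in anti-CD8a against IgG, 2 to 5 in anti-PD-L1 against anti-CD8a and 0 in anti-CD8a against control. Computed on CPM, the share of Ctsl was 8.19% in control, 19.2% in IgG and 9.39% in anti-CD8a, and that of Ctsd 54.9% in control and 51.1% in anti-CD8a. Scaling moved the median of all genes in IgG against control from -0.02 to -0.27 with upper quartiles and 0.14 with limma on TPM. Of the genes called there, 51.5% were higher, against 36.9% and 65.9%, and in anti-CD8a against IgG 48.3%, against 64.5% and 32.8%. In anti-PD-L1 against control the shares were 59.9%, 44.5% and 87.4%, against IgG 71.9%, 85.2% and 97.5%, and against anti-CD8a 61.3%, 45.1% and 89.7%. On TPM, 5 cathepsins were higher and 1 lower in IgG against control, beside 5021 and 2597 of 14372 genes, and the cause was not tested. Group sizes of 3 and 4, and counts as low as 41 for Ctsk, limit what small differences could be seen.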
